A study of Xenopus laevis with 8 samples.

Results

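The genes described here are the neuronal members of the elavl family and the neuronal beta-tubulins, together with the ubiquitous relative elavl1, in anterior endoderm of Xenopus laevis embryos. Every probe set whose platform symbol, without the homeolog suffix .L or .S, was elavl1, elavl2, elavl3, elavl4, tubb2b or tubb3 was taken. This gave 6 of 11303 named genes, measured by 8 of the 32539 probe sets tested. They comprised 1 each for elavl3.L, elavl4.L, tubb3.L and tubb2b.S, 1 for elavl1.S and 3 for elavl1.L. A further 3 probe sets listed a pair of symbols each, all from the elavl family, and were not assigned to a gene. For elavl2 no probe set carried a single symbol.

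Elavl proteins bind AU-rich and U-rich stretches of messenger RNA and act on its stability and splicing. In vertebrates elavl1 (HuR) is made in nearly all cells, whereas elavl3 (HuC) and elavl4 (HuD) are made mainly in neurons and elavl3 appears early, as a neuronal precursor leaves the cell cycle. The tubulin genes tubb2b, long used in frogs under the name N-tubulin as a marker of primary neurons, and tubb3, the class III beta-tubulin, encode subunits of neuronal microtubules. Neurogenins are proneural bHLH factors, and in the frog embryo they precede the expression of such genes in the neural plate.

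In the group with dexamethasone (DEX, 4 arrays) and in the group without it (no_DEX, 4 arrays), all embryos carried injected mRNA for Ngn3-GR, a fusion of Neurogenin 3 with a glucocorticoid receptor domain that the hormone activates. The mRNA was given at the 8-cell stage into 2 dorsal vegetal blastomeres, so only their descendants inherited it. DEX embryos received 10 µM dexamethasone for 4 hours from stage 12, no_DEX embryos received none, and anterior endoderm was dissected from both at stage 15. The labels give no strain and do not say how many embryos made up an array. Embryos lacking the fusion but exposed to the hormone were not analysed here.

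Signals are log2 values of Affymetrix probe sets, and changes are DEX minus no_DEX. Array medians lay between 6.02 and 6.12, and 17 control probe sets for tags not present in the sample set the array background, with a highest value of 4.40. Arrays with the same replicate number deviated together from their group means, so each test is given without and with the replicate number as a block. Of the endoderm markers sox17a.L averaged 10.1 in DEX and 9.84 in no_DEX arrays, and foxa2.L 8.98 and 8.72, while hhex.L lay under the background limit at 3.72 and 4.29. The pan-neural gene sox2.L, at 9.59 in DEX and 10.0 in no_DEX arrays, was also well above background. Signals of epidermal genes were higher still, with krt70.S at 14.1 in both groups and itln1.L at 13.6 in DEX and 13.7 in no_DEX arrays. The dissected tissue thus gave signal for endodermal, neural and epidermal markers alike.

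With dexamethasone the elavl3.L signal rose and the tubb3.L signal fell when arrays were compared within replicate numbers, and the ubiquitous elavl1 differed little. By limma with the replicate block, 2 of the 8 probe sets passed at an adjusted p under 0.05, 1 higher and 1 lower, where 0.553% of all probe sets passed (0.329% higher and 0.224% lower). The 2 were elavl3.L and tubb3.L. Both were proposed with earlier results of these data known, so this count is no independent support. Without the block 0 of 8 passed, against 0.00615% of all probe sets. At an unadjusted p under 0.05, limma gave 1 of 8 without the block, against 4.24% of all probe sets, and 4 of 8 with it, against 12.5%. These 4 were elavl3.L, tubb3.L, elavl4.L and the elavl1.L probe set Xl2.49136.1.S2_at. The means of the last 2 lay under the highest background control. The median change of the 8 was 0.11, beside 0.002 over all probe sets. Because this is bulk tissue, fewer cells of a type and less RNA per cell cannot be told apart.

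Elavl3 is the early neuronal RNA-binding protein of the family. The elavl3.L probe set Xl2.1035.1.S1_at measured 7.79, 8.51, 7.64 and 6.91 in DEX replicates 1 to 4, against 7.07, 7.12, 6.91 and 6.24 in no_DEX replicates 1 to 4. DEX replicate 4 was as low as the no_DEX arrays, so the groups overlapped, as they did for all 8 probe sets (2.76% of all probe sets had groups that did not), but within each number the DEX array was the higher. The group levels were 7.71 ± 0.66 in DEX and 6.84 ± 0.40 in no_DEX (SD, n = 4 arrays each). The change was log2 0.88, or 1.84-fold, with a standard error of 0.32 without the block and 0.13 with it. Limma gave an adjusted p of 1.00 without the block and 0.0350 with it. The 4 paired changes were 0.72, 1.39, 0.73 and 0.66. Pair 2 thus stood well above the other 3, which lay close together. With the block and any 1 pair left out, limma's adjusted p for elavl3.L ranged between 0.0621 and 0.112, so the call needed all 4 pairs.

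The neuronal elavl4 gene was near array background. The elavl4.L probe set Xl2.1036.2.S1_a_at measured 4.00, 4.56, 3.81 and 3.49 in DEX replicates 1 to 4, against 3.87, 4.07, 3.53 and 3.41 in no_DEX. Only DEX replicate 2 exceeded the highest background control. Its change was log2 0.24 (standard error 0.09 with the block), higher in 4 of 4 pairs, and it did not pass (limma's adjusted p = 1.00 without and 0.332 with the block). Across all probe sets, 10.9% were higher in all 4 pairs. RMA compresses differences between weak signals, so this value may understate the change of elavl4.L. At this level the signal may also be background alone, which was not tested.

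Among the neuronal tubulins, tubb3 encodes the class III isotype. The tubb3.L probe set Xl2.49103.1.S1_at measured 5.78, 5.79, 5.18 and 4.61 in DEX replicates 1 to 4, against 6.32, 6.50, 5.78 and 5.26 in no_DEX. The groups overlapped, and within each number the DEX array was the lower, as for 10.3% of all probe sets. The level was 5.34 ± 0.57 in DEX and 5.97 ± 0.56 in no_DEX (SD, n = 4 each). The signal fell by 0.63 on the log2 scale, or 1.54-fold, with a standard error of 0.33 without the block and 0.08 with it (limma's adjusted p = 1.00 and 0.0234). The paired changes were −0.55, −0.71, −0.60 and −0.65. They differed from each other with an SD of 0.07, much less than the SD of 0.34 among the paired changes of elavl3.L. Even so, with the block and any 1 pair left out, the adjusted p of tubb3.L lay between 0.0531 and 0.133.

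The other neuronal tubulin, tubb2b, encodes N-tubulin. The tubb2b.S probe set Xl2.121.1.S1_at measured 9.15, 9.22, 9.13 and 8.81 in DEX replicates 1 to 4, against 9.64, 9.41, 9.28 and 8.67 in no_DEX. It was lower with dexamethasone in pairs 1, 2 and 3 and higher in pair 4, where the paired change was 0.13. The mean change was −0.17 (standard error 0.11 with the block, 95% interval −0.42 to 0.07), and it did not pass (limma's adjusted p = 1.00 without and 0.577 with the block). Hence the interval of tubb2b.S leaves room for a fall smaller than that of tubb3.L and for a slight rise.

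**Figure D1:**
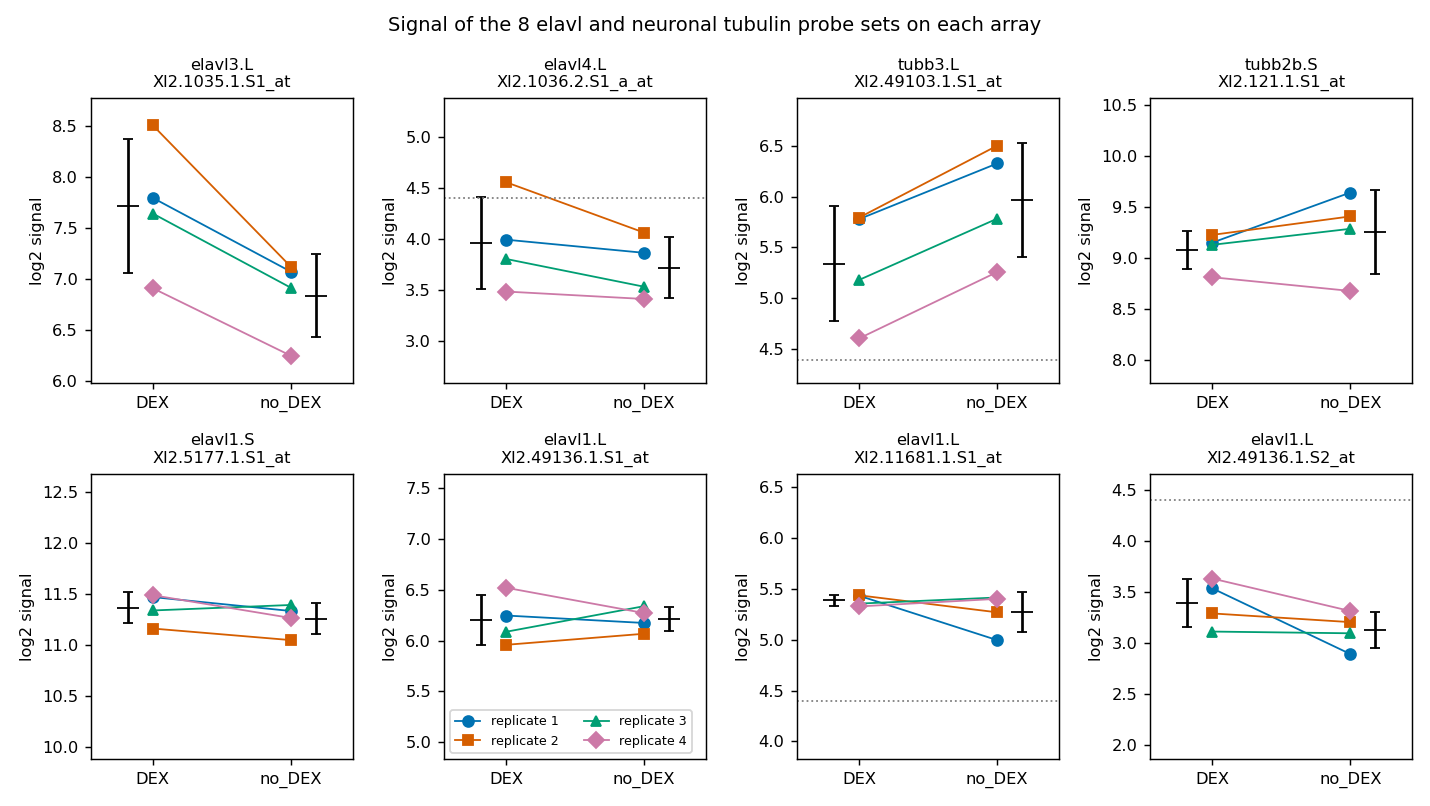
Signal on the log2 scale of the 8 probe sets, with DEX arrays left of no_DEX arrays, lines joining arrays of the same replicate number, black bars giving mean ± SD over 4 arrays, and the dotted line marking the highest background control at 4.40. All panels span the same range of signal. The elavl3.L lines all run down towards no_DEX and the tubb3.L lines all run up, while the elavl1.S arrays stay between 11.04 and 11.49.

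As the ubiquitous relative, elavl1 gave a comparison within the family. The brightest probe set, for elavl1.S, measured 11.47, 11.16, 11.34 and 11.49 in DEX replicates 1 to 4, against 11.33, 11.04, 11.39 and 11.26 in no_DEX. Its change was log2 0.11 with a 95% interval of −0.08 to 0.29 with the block (limma's adjusted p = 0.670). The 3 elavl1.L probe sets changed by −0.01 (Xl2.49136.1.S1_at, mean 6.21), 0.12 (Xl2.11681.1.S1_at, mean 5.33) and 0.27 (Xl2.49136.1.S2_at, mean 3.26). None passed with the block, with adjusted p-values of 0.983, 0.721 and 0.388. The last of these was the only elavl1 probe set higher in all 4 pairs, and its mean lay under the highest background control. The elavl1 changes therefore covered −0.01 to 0.27, and the probe sets of the 1 gene elavl1.L did not move together in each pair.

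Of the 3 unassigned probe sets, Xl2.49136.1.S1_s_at, which lists both elavl1 homeologs, measured 8.43 ± 0.12 in DEX and 8.36 ± 0.08 in no_DEX (log2 0.07, limma's adjusted p = 0.839 with the block). The other two list elavl2-b and elavl2.L. Xl2.1648.2.S1_s_at measured 4.24, 4.54, 5.44 and 5.41 in DEX replicates 1 to 4, against 4.36, 4.21, 5.19 and 5.09 in no_DEX, and Xl2.34955.1.A1_x_at lay under 4.40 on every array. Their changes of 0.20 and 0.14 did not pass (0.471 and 0.551 with the block). On Xl2.1648.2.S1_s_at, replicates 3 and 4 were above replicates 1 and 2 in both groups, the opposite of elavl3.L.

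**Figure D2:**
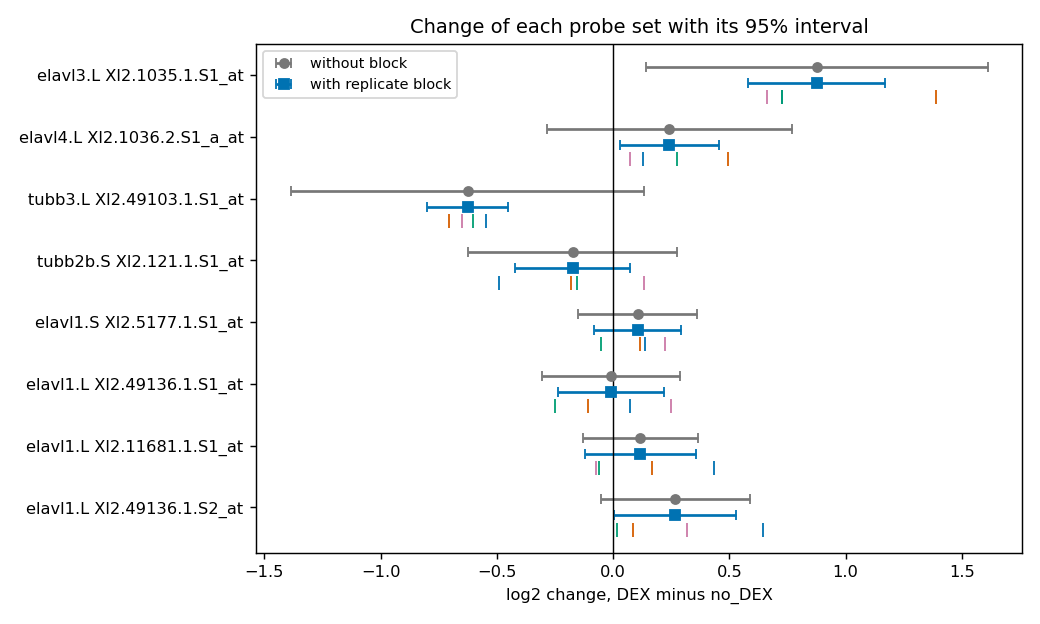
Log2 change (DEX minus no_DEX) of each of the 8 probe sets with its 95% interval from limma, grey circles without and blue squares with the replicate block, and ticks beneath for the 4 pairs (blue, orange, green and pink for replicates 1 to 4). The intervals with the block narrow most for elavl3.L, elavl4.L and tubb3.L, whose changes are 0.88, 0.24 and −0.63.

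The replicate number set much of the spread of the neuronal genes. In both groups the signals of elavl3.L, elavl4.L and tubb3.L all stood in the same order, highest in replicate 2, then 1, then 3, and lowest in replicate 4. For tubb2b.S replicate 4 was also the lowest in both groups. By contrast, elavl1.S was lowest in replicate 2 in both groups. Accordingly the residual SD was 0.54 without and 0.24 with the block for elavl3.L, and 0.56 and 0.05 for tubb3.L. For elavl1.S it was also lower with the block, at 0.15 without and 0.08 with it. Over all probe sets the deviations of same-numbered arrays correlated at 0.63 to 0.78, so a replicate effect was not particular to the neuronal genes. The labels do not say what a replicate number stands for.

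Setting elavl3.L against tubb3.L within an array narrowed the spread between arrays. The difference had an SD of 0.29 in DEX and 0.23 in no_DEX, against 0.66 and 0.40 for elavl3.L alone and 0.57 and 0.56 for tubb3.L alone. Differences from elavl1.S were not narrower, with an SD of 0.79 in DEX and 0.46 in no_DEX for elavl3.L and of 0.66 and 0.64 for tubb3.L. The pair of elavl3 and tubb3 was proposed with earlier results of these data known, so the tests here are no independent support. Since the signals come from different probe sets, a difference within 1 array has no meaning as a relative amount, and only its change between groups is read. The elavl3.L signal minus the tubb3.L signal was 2.02, 2.71, 2.46 and 2.30 in DEX replicates 1 to 4, against 0.74, 0.62, 1.13 and 0.99 in no_DEX. Every DEX array lay above every no_DEX array, although each gene alone overlapped between the groups. The change of the difference was 1.50 ± 0.19 (SE, 4 arrays a group), or 2.83-fold. An exact permutation test over the 70 splits of the arrays gave a two-sided p of 0.0286, the smallest it can give, and 0.0857 after Benjamini-Hochberg adjustment over the 3 differences computed.

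The change in the difference was positive in each pair, at 1.27, 2.10, 1.33 and 1.31. Relative to elavl1.S, elavl3.L stood higher by 0.59, 1.28, 0.78 and 0.44 in pairs 1 to 4, with a mean of 0.77. On the same basis tubb3.L stood at −0.68, −0.82, −0.55 and −0.88, with a mean of −0.73. In these 2 differences the DEX and no_DEX arrays overlapped, and the two-sided exact permutation p was 0.171 for both, also after adjustment. Exchanging signs within the 4 pairs, a test that cannot go below 0.125, gave an exact two-sided p of 0.125 for all 3 differences. Against elavl1.S the changes of elavl3.L and tubb3.L had opposite signs in 4 of 4 pairs, as they had without that reference. The paired changes of elavl1.S, −0.05 to 0.22, were smaller than theirs, so subtracting them could not alter a sign. The sizes against elavl1.S varied with the arrays used. Without DEX replicate 2 the mean change of elavl3.L against elavl1.S was 0.44. For tubb3.L it was −0.45 without DEX replicate 4 and −0.48 without no_DEX replicate 2.

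**Figure D3:**
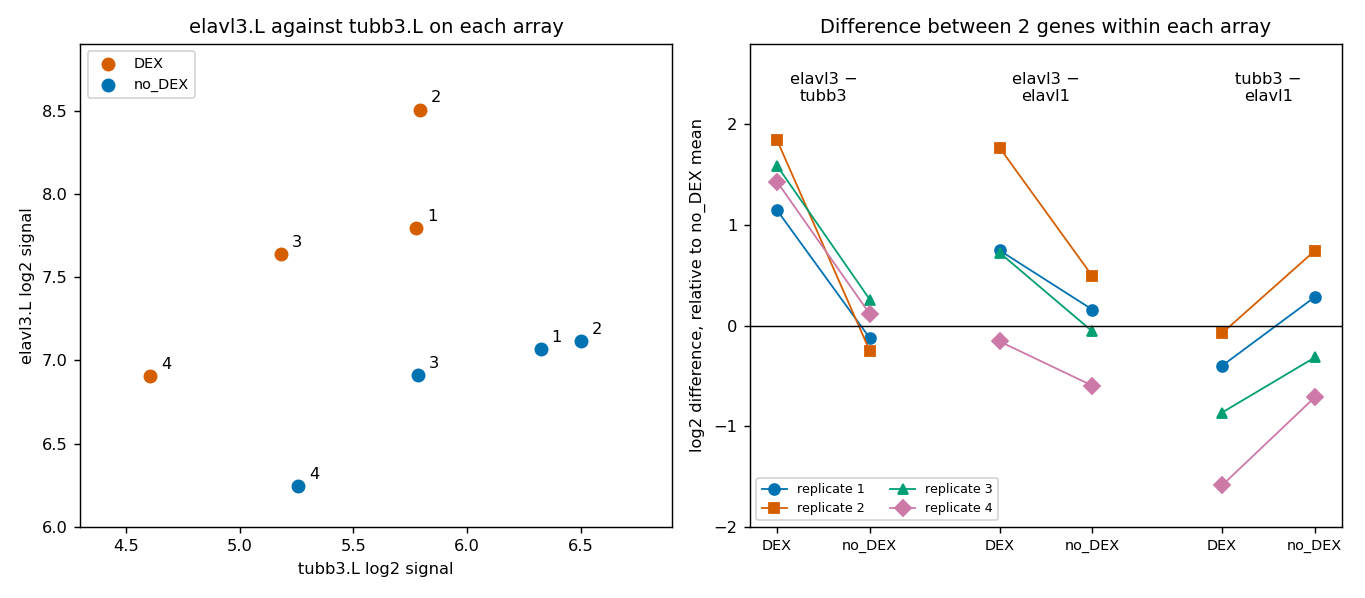
Left, the log2 signal of elavl3.L against that of tubb3.L, a point for each array with its replicate number, DEX in orange and no_DEX in blue. Right, the within-array log2 difference of each pair of genes relative to its no_DEX mean, lines joining arrays of the same number. The DEX and no_DEX arrays form 2 separate rows on the left, and only elavl3 − tubb3 separates the groups without overlap on the right.

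Other genes of neuronal differentiation, from proneural factors to neurofilaments and synaptic proteins, were counted with 1 probe set per symbol. Of 65 measured, 2 rose with the block, 0 fell and 63 did not pass, and 0 passed without it. At an unadjusted p under 0.05 with the block, 10 were higher and 5 lower, or 15.4% and 7.69% of the list, beside 7.71% and 6.31% of all named genes. Over all 11303 named genes, 0.43% rose and 0.30% fell with the block. The 2 were the zinc finger genes insm1.L, with a change of log2 1.33 (limma's adjusted p = 0.0171 with the block), and myt1.S, with 1.14 (0.0287). The median change of the list was 0.04, beside 0.006 over all named genes, and only 34 of the 65 had a mean above 4.40. Among the early genes, neurod4.L stood at log2 1.08 and nhlh1.L, a bHLH gene of newly formed neurons, at 0.99, and neither passed (0.168 and 0.173 with the block). In pair 4 their changes were 0.12 and −0.14. The no_DEX mean of nhlh1.L, 4.25, lay under the highest background control. Other transcription factor genes of the list changed less, with neurod1.S at 0.63, ebf2.S at 0.45, neurog2.S at 0.24, ebf3.L at 0.18 and neurod1.L at 0.17. Of these, ebf2.S and neurog2.S were higher in 4 of 4 pairs. Changes below 0 were seen for pou4f1.L at −0.11 and isl1.S at −0.15. None of these passed. The neuronal stathmin gene stmn3.S, whose product regulates microtubules, measured 5.63 ± 0.70 in DEX and 4.78 ± 0.27 in no_DEX (log2 0.86, 0.0959). Its signal was higher in 4 of 4 pairs. At the other end of the list were pcdh8.L, a protocadherin gene, at −0.41, and dpysl3.S and dpysl2.L, genes of axon growth, at −0.38 and −0.29, all lower in 4 of 4 pairs without passing (0.130, 0.133 and 0.215). Over the whole list, 11 of the 65 genes were higher in all 4 pairs (16.9%, against 12.5% of all named genes). Lower in all 4 pairs were 6 (9.23%, against 10.8%). The neuronal stathmin stmn2.L, at 3.96 in DEX and 3.99 in no_DEX arrays, was within the background range.

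Further RNA-binding and splicing genes did not pass in either direction, 0 of 27 with or without the block by limma. At an unadjusted p under 0.05 with the block, 1 was higher and 3 were lower (3.70% and 11.1%). Of all named genes 7.71% were higher and 6.31% lower. The one was rbfox2.S, a splicing factor gene, at log2 0.20, and the others were fmr1.L at −0.20 and the neuronal splicing factor genes nova2.L at −0.31 and nova1.L at −0.40, all 3 lower in 4 of 4 pairs. The list median was −0.03. Both celf3 homeologs, neural members of the CELF family of splicing factors, stood near 0, with celf3.L at 0.07 and celf3.S at −0.09.

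Other tubulins gave 0 calls of 15 by limma in both fits, and 1 at an unadjusted p under 0.05 with the block. That 1 gene was lower, 6.67% of the list beside 6.31% of all named genes. Of these 15, 11 changed by less than 0 (73.3%, against 47.9% of all named genes), with a list median of −0.06. In all 4 pairs 5 were lower, 33.3% against 10.8% of all named genes. They were tubb4b.S at log2 −0.26 (limma's adjusted p = 0.261 with the block), tubb.L at −0.17, tuba1c.S at −0.14, tubg1.S at −0.08 and tubb4b.L at −0.07. These changes were all smaller than the fall of tubb3.L, and that contrast was not tested. Genes of tubulin folding and microtubule regulation had 0 calls of 21 by limma in both fits and a median of 0.01. At an unadjusted p under 0.05 with the block, 1 was higher (4.76%, beside 7.71% of all named genes).

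**Figure D4:**
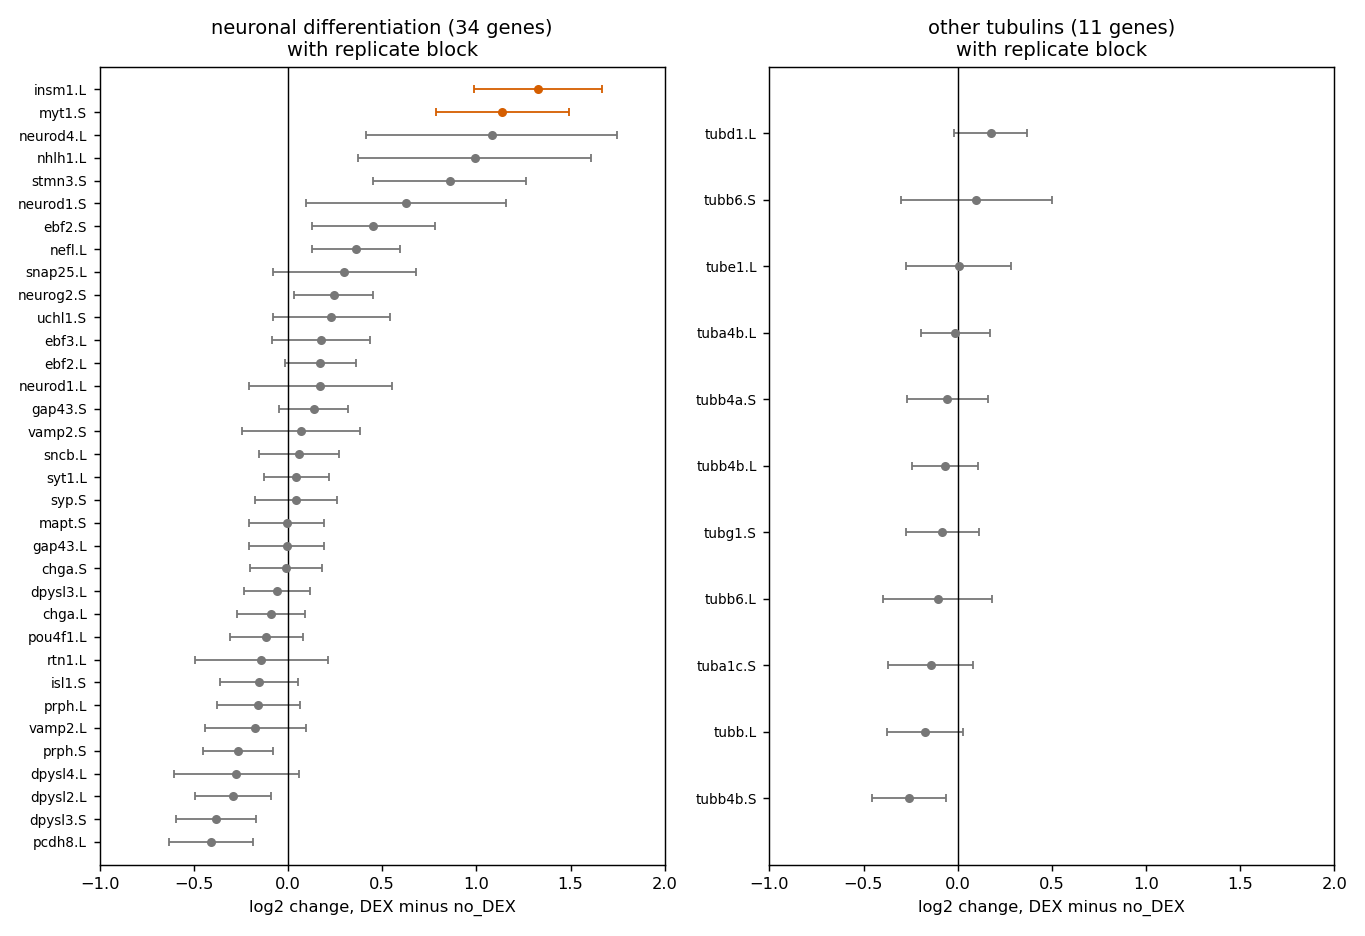
Log2 change (DEX minus no_DEX) with its 95% interval with the replicate block for the genes of 2 lists whose mean was above 4.40, neuronal differentiation at left and tubulins other than tubb2b and tubb3 at right. Genes that passed with the block are in orange. The genes of the left list run between 1.33 for insm1.L and −0.41 for pcdh8.L, and the tubulins between 0.18 for tubd1.L and −0.26 for tubb4b.S.

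Marker lists of neighbouring tissues were counted in the same way, where 5415 of the 11303 named genes (47.9%) changed by less than 0 and 0.30% fell with the block. Without the block none of the genes on these lists passed. Of 44 neural plate genes, 40 of them above background, 33 changed by less than 0 (median −0.19), and sox1.S and six6.L fell with the block, by 1.08 and 1.13 on the log2 scale (limma's adjusted p = 0.0169 and 0.0389). At an unadjusted p under 0.05 with the block, limma gave 18 of these 44 genes lower (40.9%) and 3 higher (6.82%). Over all named genes 6.31% were lower and 7.71% higher. In all 4 pairs, 15 of the 44 were lower (34.1%, against 10.8% of all named genes) and 3 higher (6.82%, against 12.5%). For each list, the median signal on an array was taken over its genes above background only. For the neural plate list this array median was 7.79 to 8.20 in DEX and 8.05 to 8.64 in no_DEX. Of 20 notochord and axial mesoderm genes, 18 above background, 13 changed by less than 0 (median −0.30). Their array medians were 6.66 to 6.96 in DEX and 6.71 to 7.75 in no_DEX. In all 4 pairs, 6 of the 20 were lower (30%, against 10.8% of all named genes) and 2 higher (10%, against 12.5%). At an unadjusted p under 0.05 with the block, limma gave 9 genes of this list lower (45%) and 2 higher (10%). Its 1 call with the block was shh.L, which encodes the secreted signal Sonic hedgehog, at 6.88 ± 0.36 in DEX and 7.82 ± 0.39 in no_DEX (SD, n = 4 each; limma's adjusted p = 0.637 without and 0.0156 with the block).

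Of 33 somite and muscle genes, 19 above background, 28 changed by less than 0 (median −0.24) and 0 passed by limma in either fit. At an unadjusted p under 0.05 with the block, 16 of them (48.5%) were lower and 0 higher. Over all named genes these shares were 6.31% lower and 7.71% higher. Over its genes above background, array medians of the muscle list were 6.13 to 7.90 in DEX and 5.69 to 8.63 in no_DEX. Replicate 4 had the lowest in both groups, as it had for elavl3.L and tubb3.L. Of 42 endoderm genes, 33 above background, 27 changed by more than 0 (median 0.06), with array medians of 8.89 to 9.23 in DEX and 8.32 to 9.27 in no_DEX. None of the endoderm genes passed by limma in either fit. At an unadjusted p under 0.05 with the block, 10 of them were higher and 6 lower (23.8% and 14.3%). The endoderm marker hhex.L, with both group means under the background limit, changed by −0.57 (limma's adjusted p = 0.0663 with the block). It was lower in 4 of 4 pairs, whereas sox17a.L, at 0.29, and foxa2.L, at 0.26, were higher in 4 of 4. Epidermal and ciliated-cell genes (27, median −0.03) and neural crest genes (18, median −0.10) gave 0 calls by limma in both fits as well. At an unadjusted p under 0.05 with the block, 2 epidermal and ciliated-cell genes were higher and 6 lower (7.41% and 22.2%). For neural crest genes these counts were 3 and 4 (16.7% and 22.2%). In all 4 pairs, 8 of the 27 epidermal and ciliated-cell genes were lower (29.6%, against 10.8% of all named genes). Higher in all 4 pairs were 4 (14.8%, against 12.5%). The lower ones included tekt2.L at −0.45, tekt2.S at −0.30 and spag6.L at −0.28, and the higher ones mcidas.S at 0.77. In all 6 lists the array medians of the groups overlapped. None of the defining markers sox2, sox3, ncam1, actc1, myh4 or ckm passed. Among them sox2.L changed by −0.41 and ncam1.L by −0.32, both lower in 4 of 4 pairs (limma's adjusted p = 0.0959 and 0.145 with the block). The changes of sox3.L, sox3.S and ncam1.S were −0.20, −0.13 and −0.26, each lower in 3 of 4 pairs. The part of any of these tissues in the changes of elavl3.L and tubb3.L was not tested.

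Among 8920 named genes above background, those whose signal over the 8 arrays ran most like elavl3.L were cerk.L, a ceramide kinase gene, at r = 0.96, the heme transporter gene slc48a1.S at 0.95, stmn3.S at 0.95, dbn1.S, which encodes the actin-binding drebrin of neurons, at 0.95, and nhlh1.L at 0.94. None of the 5 passed, and their changes were between 0.22 for cerk.L and 0.99 for nhlh1.L. The genes most like tubb3.L were sox1.S, a SoxB1 factor gene of neural progenitors, at r = 0.98, ak7.S, an adenylate kinase gene of motile cilia, at 0.98, dnaaf3.L, a dynein arm assembly gene, at 0.98, the adaptor gene sh2d3c.L at 0.98 and the cyclic GMP phosphodiesterase gene pde9a.S at 0.97. Of these only sox1.S passed with the block, while ak7.S changed by −0.26 and dnaaf3.L by −0.24. These r are the highest of many, over arrays that share replicate numbers, and describe likeness of pattern only.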

How the data were processed

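The deposited table held log2 signals of 8 Affymetrix arrays, 1 column per array. The submitters' processing notes name RMA, which corrects background, normalizes quantiles and summarises each probe set (version not given in the sources used here). No scaling was added. Of 32635 rows, 96 Affymetrix controls were left out. Symbols came from the platform annotation and were updated through the gene table of assembly Xenopus_laevis_v10.1. The brightest probe set stood for a symbol in lists (11303 named genes).

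A linear model was fitted to the 32539 probe sets (limma 3.58.1, R 4.3.3) with moderated two-sided tests from eBayes and p-values adjusted over all of them by Benjamini-Hochberg, without and with the replicate number as a block, and the script was tested on simulated data. The labels call the arrays biological replicates and share numbers 1 to 4 between the groups. Deviations from the group mean correlated at 0.63, 0.78, 0.77 and 0.69 between arrays of the same number and at most at 0.20 otherwise, so same-numbered arrays were treated as pairs. Differences between genes within an array were tested by exact permutation.

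Every member probe set was named. From each list, genes that passed in either fit were named, at most 5, along with the 5 genes most correlated with elavl3.L and with tubb3.L. Other list genes were named after their values were seen. The members and lists were chosen with earlier results of these data known. The number of arrays limits the precision.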

Additional observations from a re-analysis of the deposited data

Results flagged for a closer look

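Of 28 groups of 4 arrays examined for a value far from the others, 1 stood out, where chance gives about 1 in 20. It was the no_DEX group on Xl2.49136.1.S1_s_at, the probe set shared by both elavl1 homeologs. This probe set measured 8.38, 8.42, 8.32 and 8.60 in DEX replicates 1 to 4, against 8.40, 8.39, 8.42 and 8.24 in no_DEX replicates 1 to 4. The gap between no_DEX replicate 4 and the nearest array of its group was 0.833 of the range of that group.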

How the results depend on the processing

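Without the block, 2 probe sets were called over the whole table and 0 of the 8 members. With the replicate block these counts were 180 and 2. Settings chosen after the data were seen also gave 2 members with the block: array medians centred (169 calls in all), only probe sets above background (150) and a variance prior with trend (234). In these 4 fits with the block elavl3.L changed by 0.88, 0.87, 0.88 and 0.88 (adjusted p = 0.0350, 0.0370, 0.0430 and 0.0226) and tubb3.L by −0.63, −0.63, −0.63 and −0.63 (0.0234, 0.0225, 0.0266 and 0.0256). Leaving out 1 array without the block gave 0 to 3 calls and 0 members, with elavl3.L between 0.61 (without DEX replicate 2) and 1.14 (without DEX replicate 4) and tubb3.L between −0.86 (without no_DEX replicate 4) and −0.38 (without DEX replicate 4). Leaving out 1 pair with the block gave 34, 4, 26 and 120 calls without replicates 1 to 4 and 0 members, with elavl3.L at 0.71 to 0.95 and tubb3.L at −0.65 to −0.60. The fits with a pair left out had fewer arrays. The elavl1.L probe set Xl2.49136.1.S1_at, at −0.01, changed sign when arrays were left out, with −0.12 to 0.072 for 1 array and −0.10 to 0.071 for 1 pair. The difference of elavl3 minus tubb3 changed by 1.39 to 1.62 with 1 array left out. Its sign could not change, because every DEX array lay above every no_DEX array. With the same arrays left out, elavl3 minus elavl1 changed by 0.44 (without DEX replicate 2) to 1.08 (without DEX replicate 4) and tubb3 minus elavl1 by −0.97 (without no_DEX replicate 4) to −0.45 (without DEX replicate 4). With all elavl1 probe sets above background averaged, elavl3 minus elavl1 changed by 0.81 and tubb3 minus elavl1 by −0.70. The signals of elavl4.L and 1 elavl1.L probe set lay at background, which limits what they show.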
